A study of Mus musculus with 2 samples.

Results

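The Vwf-high vascular endothelial nuclei are a small group of blood vessel lining nuclei in mouse perivascular fat, the fat that surrounds an artery. A nucleus was included when it had at least 500 UMIs (unique molecular identifiers, 1 per captured RNA molecule) with under 5% of them mitochondrial. It also needed at least 4 UMIs, at least 8 per 10000, over 2 or more of the endothelial genes Flt1, Adgrl4, Cyyr1 and Ptprb. At most 1 UMI of the lymphatic genes Prox1, Reln and Mmrn1 and at most 2 UMIs of the macrophage genes F13a1 and Mrc1 were allowed. The last condition was at least 2 UMIs of Vwf. By this rule there were 227 nuclei among 20146 deposited cell barcodes, 19480 of which passed the first condition. The levels of Vwf, Ptprb and the other genes of the rule chose the nuclei, so their values are given as a description.

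Nuclear RNA was measured in mesenteric perivascular fat from mice aged 11 weeks, in 2 libraries of the 10x 3' kind. The control library came from tissue with the genotype Prdm16flox, although its title calls it wt. The second library carried Prdm16flox together with AdopiQCre+, as the label spells a Cre driven from the adiponectin gene, which acts in adipocytes. Its title calls it PRDM16cKO, and it is named here the cKO-labelled library. Both libraries therefore share the floxed allele of Prdm16, which encodes a zinc finger transcription regulator, and the Cre is not meant to act in endothelium. The number of animals behind each library is not given in the sources used here. With 1 library per genotype no test between genotypes was possible, and all intervals below are 95% intervals of counting error alone. They do not cover the spread between animals, and reads of 1 nucleus are not independent samples.

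The 2 libraries held 12060 and 8086 barcodes, of which 28 had the same sequence in both. Among these was 1 control Vwf-high nucleus and no cKO-labelled one. Adipocyte RNA was present in every class of nuclei. The summed level of 6 adipocyte genes in Vwf-high nuclei was 23.6% of that in adipocyte nuclei in the control library and 32.0% in the cKO-labelled library, and in the other vascular endothelial nuclei it was 41.3% and 45.2%. Levels are in CPM, the UMIs of a gene for every 1000000 UMIs of the class. Prdm16 in adipocyte nuclei stood at 18.1 CPM in the control and 25.5 under the cKO label. The floxed exon is not given in the labels and the kit reads the 3' end, so this count does not check the deletion.

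Von Willebrand factor, the product of Vwf, is a large adhesive protein that endothelium stores in Weibel-Palade bodies and releases at sites of injury, where it captures platelets. P-selectin, the product of Selp, lies in the membrane of the same bodies and binds leukocytes once it reaches the surface. In many vascular beds Vwf is high in veins and larger vessels and low in capillaries. Arterial and venous endothelium differ in their transcription programmes: Notch signalling, Sox17, Hey2 and the connexin Gja5 mark arteries, and the nuclear receptor Nr2f2 marks veins. Prdm16 is best known from brown fat and is also a gene of arterial endothelium.

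The Vwf-high nuclei numbered 156 in the control and 71 under the cKO label. They made up 1.34% of the kept control nuclei (exact binomial interval 1.14 to 1.57) and 0.902% of the kept cKO-labelled nuclei (0.705 to 1.14). As a share of all vascular endothelial nuclei, 418 and 247 in number, they were 37.3% (32.7 to 42.2) and 28.7% (23.2 to 34.8). The share of the cKO-labelled library was thus the lower one on both denominators, and the intervals over vascular nuclei overlapped. After each nucleus was thinned to 1500 UMIs, the shares of kept nuclei were 0.428% and 0.447%, in the other order. There every condition of the rule, and not only that of Vwf, was applied to the thinned counts. Nuclei under 1500 UMIs were left out. The median Vwf-high nucleus held 7836 UMIs in the control and 6827 under the cKO label, against 4146 and 4132 in the other vascular endothelial nuclei.

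Vwf itself (chr6:125546774-125686679, plus strand, GRCm38) ranged from 2 to 59 UMIs per nucleus in the control, with a median of 5. In the cKO-labelled library it ranged from 2 to 27, also with a median of 5. Just inside the limit, 22 control and 11 cKO-labelled nuclei held exactly 2 UMIs, and just outside it 37 and 25 vascular nuclei held 1. The summed level was 821 CPM (774 to 869) in the control and 784 (716 to 857) under the cKO label. The limit also left out nuclei with 2 or more Vwf UMIs that failed another condition. Of 346 control and 165 cKO-labelled nuclei with that much Vwf, 55 and 28 were lymphatic endothelial, 65 and 29 exceeded the lymphatic or macrophage limits, and 70 and 37 were below the endothelial limits. In T cell nuclei, which should lack the gene, 8.46% of 331 nuclei in the control and 6.36% of 173 in the other library had at least 1 Vwf UMI, at median depths of 4512 and 4490.0 UMIs.

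The other marker genes of the label were higher as well. Ptprb, the phosphatase that restrains the Tie2 receptor, is part of the rule and stood at 1947 CPM in control and 1915 CPM in cKO-labelled Vwf-high nuclei, against 950.1 and 838 in the other vascular endothelial nuclei. Tek, which encodes Tie2, the angiopoietin receptor, stood at 625 and 446 CPM against 352 and 267. Selp stood at 51.5 and 60.9 CPM against 12.4 and 11.3, and 30 of its 74 control UMIs came from 1 nucleus. All 3 stood higher in the Vwf-high nuclei of both libraries, Tek by less than 2 times. Platelets and megakaryocytes also carry Vwf. Their 7 marker genes gave 38 control and 10 cKO-labelled UMIs in Vwf-high nuclei, a summed level of 26.5 and 16.0 CPM against 31.3 and 13.1 in the other vascular nuclei, and Gp9, Ppbp and Gp6 were at 0 in both libraries. The 7 lymphatic markers, some of which the rule limits, stood at 53.6 and 41.7 CPM against 5515 and 5159 in lymphatic endothelial nuclei, with Ccl21a at 0 in both.

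Apart from the genes of the rule, most venous list genes were higher and most capillary list genes lower in the Vwf-high nuclei. The comparison asks what else separates them from the 262 control and 176 cKO-labelled vascular endothelial nuclei with 0 or 1 Vwf UMIs. Of 6691 genes with at least 20 UMIs in the class where they were higher, 179 were at least 2 times higher in both libraries, which is 2.68% of them. Another 166, or 2.48%, were at least 2 times lower in both. The median log2 ratio over all these genes was -0.06 in the control and -0.10 under the cKO label.

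Adgrg6, an adhesion G protein-coupled receptor, was the third highest by ratio after Vwf and the unnamed gene model Gm6213. It stood at 414 CPM in control and 425 CPM in cKO-labelled Vwf-high nuclei, against 36.4 and 34.7 in the other vascular nuclei. Its log2 ratios were 3.51 (3.09 to 3.95) and 3.61 (3.11 to 4.15), so the 2 libraries gave nearly the same size. It was found in 79 of 156 and 34 of 71 Vwf-high nuclei. Slco2a1, the prostaglandin transporter, was more evenly spread, with UMIs in 120 and 59 nuclei. Its level was 493 and 476 CPM against 80.1 and 96.7. Myof, which encodes the membrane repair protein myoferlin, had UMIs in 134 and 60 nuclei and stood at 618 and 502 CPM against 121 and 114.

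Other genes among the 15 with the highest ratios were Wipf3, Pgm5, Ddah1, Unc5c, Cpe, Ctnnal1, Nrxn3, Megf6, St8sia2 and Ntng1. Ddah1, an enzyme that breaks down a natural inhibitor of nitric oxide synthase, stood at 102 and 60.9 CPM against 18.2 and 10.3. Cpe, carboxypeptidase E, a prohormone-processing enzyme, stood at 171 and 127 CPM against 5.83 and 24.4. Ntng1 is a different case: its UMIs came from 3 nuclei in each library, and 1 nucleus held 93.3% of them in the control.

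**Figure D1:**
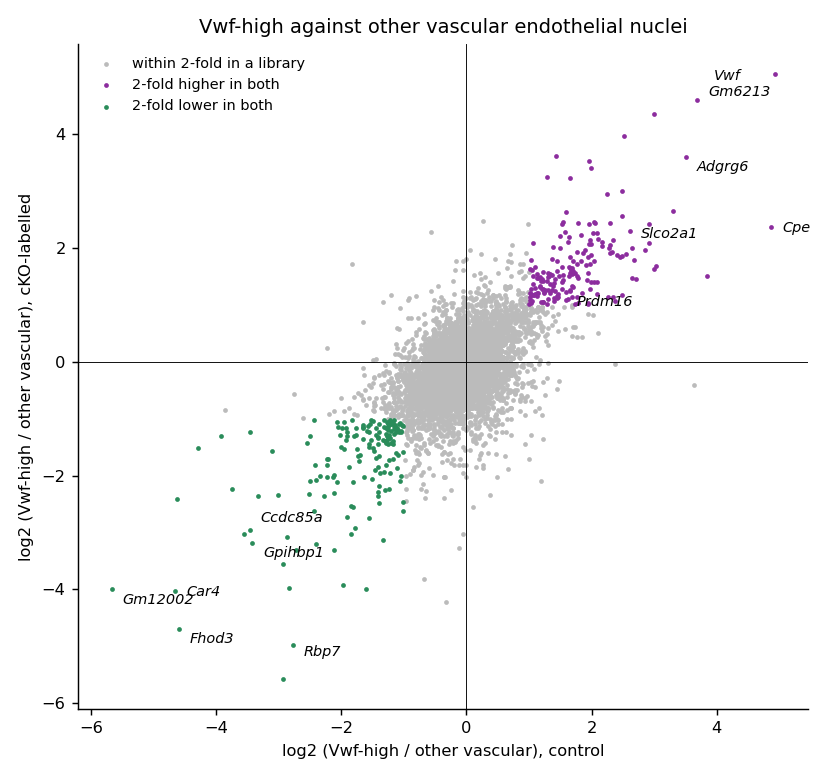
Each point is 1 gene, with the log2 ratio of its level in Vwf-high over other vascular endothelial nuclei in the control library on the x axis and in the cKO-labelled library on the y axis. Purple points are at least 2 times higher and green points at least 2 times lower in both libraries; Vwf and Adgrg6 lie at the upper right and Car4 and Gm12002 at the lower left, and genes at 0 UMIs in a class are not drawn.

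Capillary genes were low. Of 10 listed capillary markers 8 could be measured, and 6 of them were at least 2 times lower in both libraries (Car4, Gpihbp1, Timp4, Btnl9, Cd36 and Rgcc). The median log2 ratio of the list was -2.34 in the control and -1.62 under the cKO label. Car4, a carbonic anhydrase of capillary endothelium, had 3 UMIs in all control Vwf-high nuclei together and 2 in the cKO-labelled ones, against 72 and 56 in the other vascular nuclei. Gpihbp1, which holds lipoprotein lipase on the capillary wall, had 5 and 2 against 51 and 31. The fatty acid receptor Cd36 stood at 789 and 734 CPM against 2353 and 1594. Kdr, the main VEGF receptor, stood at 31.3 CPM against 192 in the control, but at 56.1 against 111 in the cKO-labelled library, just under 2 times. Markers of fibroblasts and T cells were lower too. Of 5 fibroblast markers 4 passed 2 times (Gfpt2, Col1a1, Col14a1 and Pdgfra), with a summed level of 134 and 123 CPM against 344 and 393. Both measured T cell markers (Cd247 and Themis) passed as well, with 73.8 and 28.9 CPM over the 4 genes of that list against 199.6 and 120.1. Pancreatic acinar markers went the other way, with a summed level over 4 genes of 211 and 414 CPM against 59.0 and 242, and Cela1 passed 2 times. Pericyte and smooth muscle markers stood at 62.0 CPM against 84.5 in the control and at 160.3 against 100.4 under the cKO label. No measured marker of B cells, mesothelium or macrophages passed 2 times. The part of RNA from such cells in the low and high genes was not tested.

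Several genes outside that list were nearly absent from Vwf-high nuclei. The glutamate transporter Slc1a1 had 3 UMIs in control and 0 in cKO-labelled Vwf-high nuclei, against 103 and 88 in the other vascular nuclei. Taking 3 counts over the class as the limit that a count of 0 allows, it was at least 17.2-fold lower in the cKO-labelled library. The long noncoding gene model Gm12002 had 7 and 10 UMIs against 340 and 274. Fhod3, Coro6, Ptchd4, Ccdc85a, Lrrc36, Ephb1, Col28a1, Rbp7, Slc28a2 and Hecw2 complete the 15 genes with the lowest ratios. Of 13 genes of endothelial lipid uptake, 8 were measured and 3 were at least 2 times lower (Gpihbp1, Cd36 and Scarb1), none higher.

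Several genes that act on the vessel wall and on leukocytes were higher. Of 20 listed genes of vasoactive signalling 14 were measured, and 6 of them were at least 2 times higher in both libraries (Edn1, Kcnn4, Calcrl, Nos3, Kcnn3 and Ptgs1). Edn1, which encodes the constrictor endothelin-1, stood at 107 and 89.8 CPM against 31.3 and 23.5. Nos3, the endothelial nitric oxide synthase, stood at 274 and 297 CPM against 99.1 and 130.4. Calcrl, the receptor chain for calcitonin gene-related peptide and adrenomedullin, stood at 714 and 651 against 220 and 219.6. The endothelin receptor Ednrb stood lower, at 6.27 and 11.2 CPM against 26.2 and 23.5, and the interval of its log2 ratio included 0 in the cKO-labelled library (-2.52 to 0.19). Of 16 leukocyte adhesion genes 11 were measured, and 4 were higher (Selp, Vcam1, Icam1 and Pecam1) and 1 lower (Jam3).

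Among 14 measured genes of Weibel-Palade bodies and haemostasis, Vwf and Selp, which the rule and the label name, and Edn1 were at least 2 times higher, and none was lower. The median log2 ratio of that list was 0.74 in the control and 0.94 under the cKO label. Among 18 measured genes of basement membrane and elastic matrix, 3 were higher (Eln, Mgp and Sulf1) and 1 lower (Col4a2). Elastin, from Eln, stood at 1807 and 1510.5 CPM against 466 and 357. Vegfc, a growth factor best known for lymphatic vessels, stood at 681 and 574 CPM against 255 and 242. Clock genes and interferon genes had no member past 2 times among 14 and 17 measured.

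The transcription factor genes Nr2f2 and Prdm16 were both higher in the Vwf-high nuclei. Of 20 measured endothelial transcription factor genes, 5 were higher in both libraries (Nr2f2, Prdm16, Gata2, Gata6 and Mecom) and 1 was lower (Ets1). Mecom, which is related to Prdm16 in sequence, stood at 6151 CPM in the control and 5384 under the cKO label, against 3069.5 and 2672. Nr2f2, the venous factor, stood at 113 and 152 CPM against 45.2 and 53.5. Prdm16, which is not in the arterial list used here, stood at 447 CPM (413 to 482) and 349.6 CPM (305 to 399) against 148 and 149. The arterial list held genes on both sides, with Bmx and Gja5 higher and Cxcl12 and Unc5b lower among 10 measured, and its median log2 ratios were 0.25 and 0.29. After the adipocyte profile was subtracted, the median of the smaller ratios turned from 0.25 to -0.04. Of 7 measured venous genes 5 were higher, with medians of 1.32 and 1.56.

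The Vwf-high nuclei were then divided by a score, because some arterial list genes and most measured venous list genes were high together. In each nucleus the UMIs of 6 venous genes (Nr2f2, Ephb4, Selp, Ackr1, Sele and Lrg1) were subtracted from those of 8 arterial genes (Sox17, Gja4, Gja5, Hey1, Efnb2, Dll4, Bmx and Sema3g). A difference of 2 or more was called arterial-leaning, -2 or less venous-leaning, and the rest undecided. These are ranges of a score and not cell types. In the control, 84 nuclei (53.8%, 45.7 to 61.8) were arterial-leaning, 37 (23.7%, 17.3 to 31.2) venous-leaning and 35 undecided. In the cKO-labelled library there were 32 (45.1%, 33.2 to 57.3), 22 (31.0%, 20.5 to 43.1) and 17. At full depth arterial-leaning nuclei were thus the largest group in each library, and the intervals of the 2 libraries overlapped. Exactly at the limit lay 17 control and 5 cKO-labelled nuclei, and 20 and 10 undecided nuclei lay 1 UMI short of it. The score depends on depth: after thinning to 1500 UMIs, 32.7% and 28.2% of the nuclei were arterial-leaning and 7.69% and 7.04% venous-leaning. Undecided nuclei were then the largest group in each library.

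Prdm16 (chr4:154316125-154636873, minus strand) was found almost entirely in the arterial-leaning nuclei. They held 630 of its 641 UMIs in control Vwf-high nuclei and 215 of 218 in cKO-labelled ones. Prdm16 had UMIs in 65 of 84 control and 28 of 32 cKO-labelled arterial-leaning nuclei. It had UMIs in 2 of 37 and 2 of 22 venous-leaning nuclei, and in 3 of 35 and 0 of 17 undecided nuclei. With 3 counts of the total as the limit, the 0 of 17 allows a share of nuclei with a Prdm16 UMI of up to 17.6%, and its exact binomial interval reaches 19.5%. The median arterial-leaning nucleus had 5 Prdm16 UMIs in the control and 6 under the cKO label, with highest values of 31 and 39. In CPM the arterial-leaning nuclei stood at 770.3 (711 to 833) and 669.9 (583 to 766), and the venous-leaning ones at 21.7 (9.38 to 42.8) and 13.5 (2.78 to 39.4). The groups were far apart in both libraries, and the level in venous-leaning nuclei was close to the 18.9 and 18.4 CPM of lymphatic endothelial nuclei. Prdm16 was not one of the score genes.

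With Prdm16 read at equal depth, and the classes kept from the score at full depth, the pattern was the same. With each nucleus thinned to 1500 UMIs, 51.2% of control and 56.2% of cKO-labelled arterial-leaning nuclei had a Prdm16 UMI, against 2.70% and 0% of venous-leaning nuclei. T cell nuclei, taken as a class that should lack Prdm16, had 2.11% and 1.75% after the same thinning and 5.44% and 5.78% before it. The shares in venous-leaning nuclei, 5.41% and 9.09% before thinning, lay within counting error of these and are read as background.

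**Figure D2:**
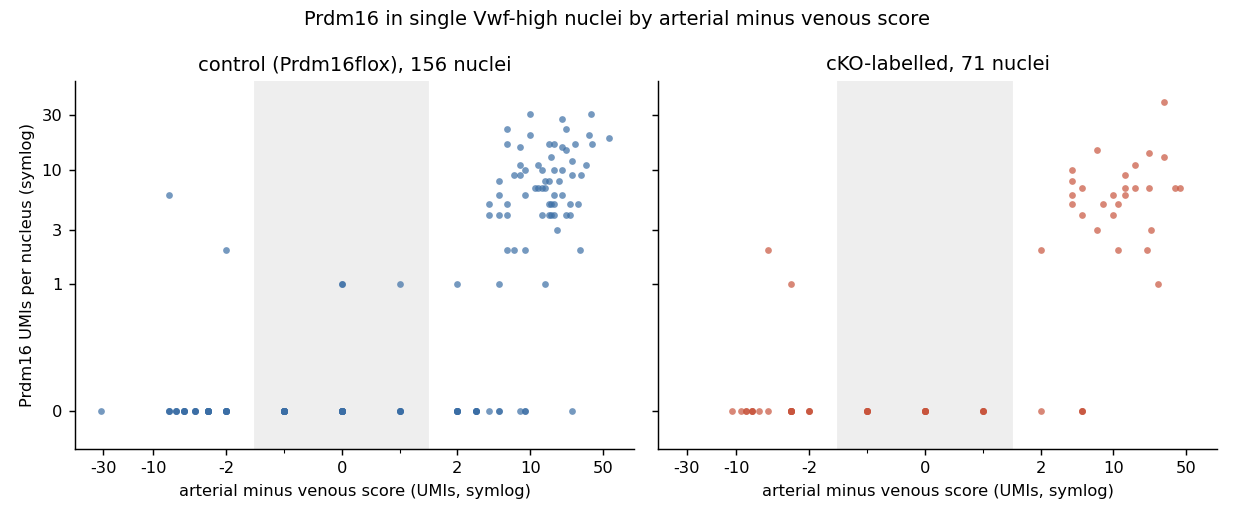
Each point is 1 Vwf-high nucleus, with the arterial minus venous score in UMIs on the x axis and its Prdm16 UMIs on the y axis, both on axes that are linear near 0 and logarithmic beyond, and the grey band marks undecided nuclei. Nuclei with several Prdm16 UMIs lie at the right in both libraries, up to 31 UMIs in the control and 39 under the cKO label.

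Between the libraries the Prdm16 level in all Vwf-high nuclei differed by a log2 ratio of -0.35 (-0.58 to -0.13), cKO-labelled over control, which is under 1.5 times. Within the arterial-leaning nuclei alone the log2 ratio was -0.20, and in the other vascular nuclei it was 0.01. The cKO-labelled library had the smaller share of arterial-leaning nuclei. One cKO-labelled nucleus held 17.9% of its Prdm16 UMIs, and with CPM averaged over nuclei the ratio was -0.12. Prdm16 was also present in vascular endothelial nuclei with little Vwf: among those with an arterial minus venous score of 2 or more, it stood at 306 CPM (262 to 356) in 94 control nuclei and at 313 CPM (263 to 370.1) in 62 cKO-labelled nuclei. These levels lay below those of the arterial-leaning Vwf-high nuclei, and the intervals did not overlap. In such nuclei with a venous score it stood at 6.67 and 8.23 CPM, from 1 UMI each.

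Many genes differed with the score. Among 3262 genes with enough UMIs, 176, or 5.40%, were at least 2 times higher in arterial-leaning than in venous-leaning Vwf-high nuclei of both libraries, and 98, or 3.0%, were at least 2 times lower. Of these, 5 and 3 are score genes, which leaves 171 and 95 that the score did not use. The genes named on each side here were chosen after their values were seen, from the 15 with the largest smaller ratio of the 2 libraries. Those higher in arterial-leaning nuclei, apart from the score genes Sema3g and Gja5, were Gm33206, Kcnn3, Mannr, Rp1, Ntng1, Ptchd1, Ssu2, Hey2, St8sia6, Col8a1, Prdm16, Lrrc3b and Enpp6.

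Kcnn3, a calcium-activated potassium channel that hyperpolarises endothelium, had 95 UMIs in control and 45 in cKO-labelled arterial-leaning nuclei and 0 in the venous-leaning nuclei of both libraries. With 3 counts over the class as the limit for a count of 0, it was at least 14.3-fold and at least 10.4-fold higher. Kcnn3 was not limited to arterial-leaning nuclei, since lymphatic endothelial nuclei stood at 169 and 182 CPM. Hey2, a repressor that responds to Notch, had 72 and 40 UMIs and 0 in venous-leaning nuclei, at least 10.8-fold and 9.25-fold higher. The long noncoding RNA Mannr had 143 and 61 UMIs against 0, at least 21.5-fold and 14.1-fold higher. Col8a1, a chain of a subendothelial collagen, stood at 289.8 CPM in both libraries, with 3 and 0 UMIs in venous-leaning nuclei. In the cKO-labelled library 36.6% of the Col8a1 UMIs came from 1 nucleus.

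The 250 bases before the RefSeq start site (build GRCm38.p6) are shown for Prdm16, Kcnn3 and Hey2, all higher in arterial-leaning nuclei. They are also shown for Selp, a gene of the venous score, which places it on the venous side. Neither Vwf nor Ptprb had an entry. Searched on both strands were AGATAA (bound by GATA factors), AACAAT (SOX factors), TGGGAA (RBPJ, the Notch effector), CCGGAA (ETS factors) and TATAAA (the TATA box), and matches stand in capitals. The windows lie at chr4:154636874-154637123 (minus strand), chr3:89519914-89520163 (plus strand), chr10:30842784-30843033 (minus strand) and chr1:164115014-164115263 (plus strand).
Prdm16: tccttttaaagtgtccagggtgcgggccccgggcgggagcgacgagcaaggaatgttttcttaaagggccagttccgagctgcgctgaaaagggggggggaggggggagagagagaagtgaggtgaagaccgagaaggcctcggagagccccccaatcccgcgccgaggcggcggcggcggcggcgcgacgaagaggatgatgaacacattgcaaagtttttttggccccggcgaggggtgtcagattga
Kcnn3: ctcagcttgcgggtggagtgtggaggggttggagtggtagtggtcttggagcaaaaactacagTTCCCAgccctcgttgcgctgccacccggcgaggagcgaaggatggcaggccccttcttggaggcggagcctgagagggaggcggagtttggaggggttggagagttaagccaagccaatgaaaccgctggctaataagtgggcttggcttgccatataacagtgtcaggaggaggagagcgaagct
Hey2: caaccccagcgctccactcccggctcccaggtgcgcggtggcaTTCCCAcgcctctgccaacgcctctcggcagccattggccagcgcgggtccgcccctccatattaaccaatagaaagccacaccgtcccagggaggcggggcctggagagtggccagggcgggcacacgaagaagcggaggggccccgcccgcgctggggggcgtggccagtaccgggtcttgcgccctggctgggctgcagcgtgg
Selp: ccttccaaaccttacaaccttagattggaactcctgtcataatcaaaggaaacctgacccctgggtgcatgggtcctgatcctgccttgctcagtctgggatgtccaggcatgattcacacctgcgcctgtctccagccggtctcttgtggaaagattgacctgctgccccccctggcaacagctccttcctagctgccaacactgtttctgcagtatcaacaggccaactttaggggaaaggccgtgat

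Kcnn3 and Hey2 each held TTCCCA, the RBPJ letters on the other strand, beginning 187 and 207 bases before the start. The windows of Prdm16 and Selp held none of the searched letters. The RBPJ letters stand in 21.6% of all 32851 windows of that length, the SOX letters in 9.42%, the GATA letters in 9.99%, the ETS letters in 12% and the TATA letters in 12.4%. Of the 14 arterial-side genes with an entry, 3 held the RBPJ letters (Hey2, Kcnn3 and Lrrc3b), and of 13 venous-side genes 4 did (Nrxn3, Ntf3, Pde2a and Slco2b1). A match is a description of letters and not of binding.

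On the venous side, apart from the score genes Nr2f2 and Selp, stood Nrxn3, Ntf3, Nrp2, Ctnnal1, Slco2b1, Lhx6, Pde2a, Samd5, Adgrg6, Tll1, Kirrel3 and Ltbp1. Adgrg6 stood at 646 CPM (567 to 734) in control and 714 (608 to 835) in cKO-labelled venous-leaning nuclei, against 152 and 34.3 in arterial-leaning ones. Nrp2, a coreceptor for semaphorins and VEGF-C, stood at 508 and 539 CPM against 74.6 and 59.2. Tll1, a protease of the tolloid family, stood at 777 and 993 against 189.5 and 56.1. Lhx6, a homeobox factor, had 46 and 39 UMIs in venous-leaning nuclei, at 125 and 175 CPM, against 25.7 and 6.23. Of the 15 genes with the highest ratios over the other vascular nuclei, 3 (Adgrg6, Ctnnal1 and Nrxn3) were thus also venous-side genes. Ntng1, also among those 15, was an arterial-side gene.

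In these genes the undecided nuclei differed from the arterial-leaning ones in the same direction as the venous-leaning ones did. The undecided nuclei did not match the venous-leaning level throughout. In the control, Slco2b1 stood at 144 CPM in undecided against 279.7 in venous-leaning nuclei, and Kirrel3 at 669.6 against 473. For all 15 arterial-side genes, the undecided level was at most 50% of the arterial-leaning level in both libraries. For all 15 venous-side genes it was at least 2 times the arterial-leaning level. The score holds down its own genes in undecided nuclei, and without them the counts were 13 of 13 on each side. All were chosen for their difference between arterial-leaning and venous-leaning nuclei. Adgrg6 stood at 930.2 CPM in 35 control and 1185 CPM in 17 cKO-labelled undecided nuclei. Nr2f2 stood at 148 and 175 CPM, between the 25.7 and 31.2 of arterial-leaning and the 282 and 319 of venous-leaning nuclei. In CPM, Vwf was highest in the undecided nuclei, at 1403 and 1622. It stood at 937 and 849 in venous-leaning and 591 and 529.7 in arterial-leaning nuclei. The rule sets a lowest Vwf count whatever the depth, so these levels are a description. Single undecided control nuclei held 59 and 41 Vwf UMIs. After thinning to equal depth, 71.4% of undecided and 70.3% of venous-leaning control nuclei had a Vwf UMI, nearly the same share. In the cKO-labelled library these shares were 94.1% and 63.6%. Undecided nuclei were shallower, with median UMIs of 5272 and 3889 against 8414 and 9058 in arterial-leaning nuclei.

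**Figure D3:**
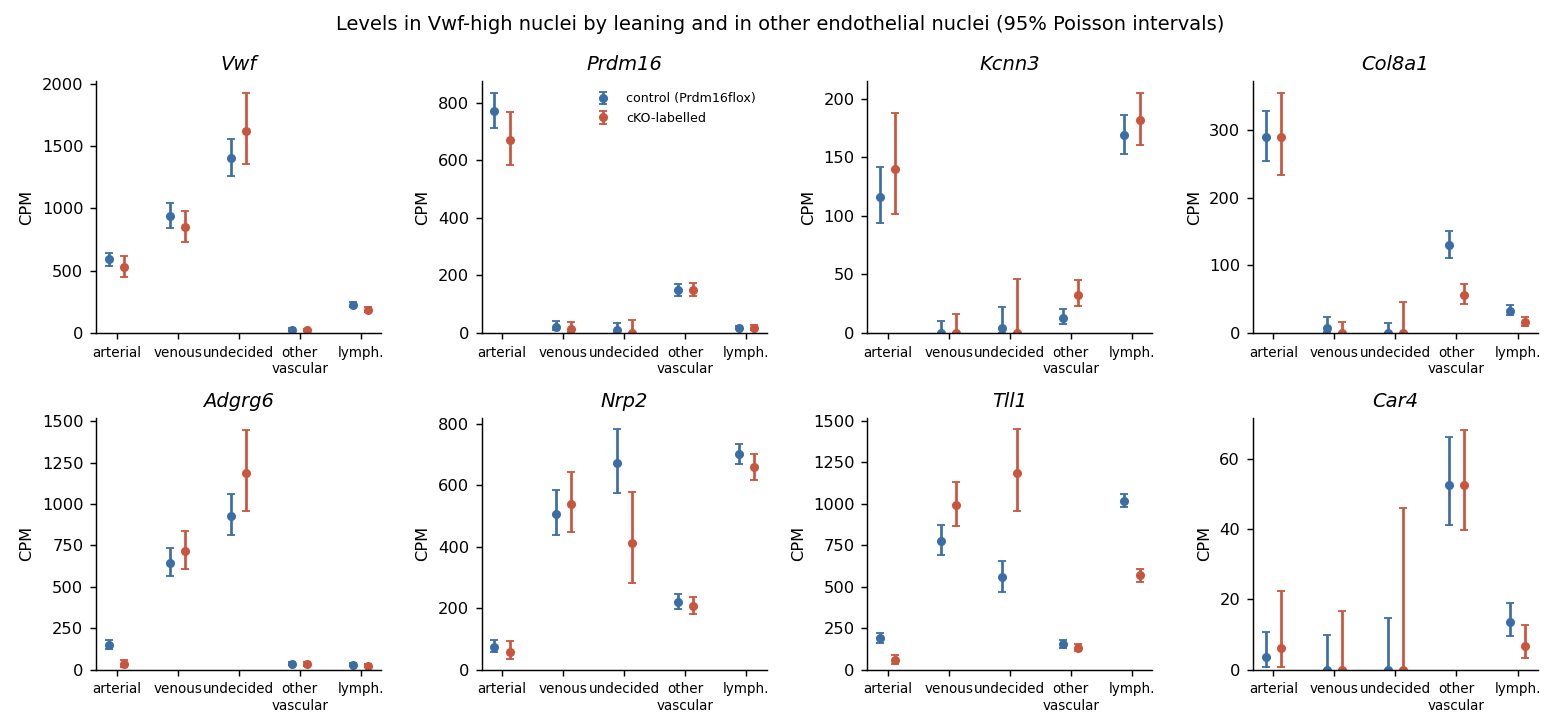
Points are levels in CPM of 8 genes, each panel on its own linear axis, in arterial-leaning, venous-leaning and undecided Vwf-high nuclei, other vascular endothelial nuclei and lymphatic endothelial nuclei, with bars for 95% Poisson intervals. Prdm16 and Col8a1 are high in arterial-leaning nuclei, Adgrg6 in venous-leaning and undecided nuclei, and Car4 in the other vascular nuclei, in both libraries.

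Some genes of the vessel wall leaned with the score as well. Elastin was higher on the arterial side, with 2555 and 2365 CPM of Eln against 652 and 544. Mgp, an inhibitor of calcification, stood at 362 and 405 CPM against 46.2 and 67.4. Vegfc stood at 1033 and 938 against 223 and 207. Of 15 measured matrix genes 5 were higher on the arterial side (Mgp, Eln, Fn1, Ltbp4 and Fbln5) and none lower, where Fbln5 and Ltbp4 also stand in the arterial list. Vcam1, listed as venous, was higher in arterial-leaning nuclei, with 209 and 130 UMIs against 35 and 13, at log2 ratios of 1.43 and 2.79. Haemostasis genes went both ways: the plasminogen activator Plat stood at 48.9 and 68.5 CPM in arterial-leaning against 16.3 and 4.49 in venous-leaning nuclei, and the coagulation factor F8 at 23.2 and 56.1 against 67.9 and 153. Of 7 measured Notch genes 2 were higher on the arterial side (Jag1 and Hey2), with the ligand Jag1 at 336 and 312 CPM against 114 and 89.9. Of 12 measured TGF-beta and BMP genes 5 were higher (Bmp6, Smad7, Smad6, Ltbp4 and Acvrl1) and 2 lower (Ltbp1 and Tgfbr3). The median share of mitochondrial UMIs per nucleus was 1.16% and 1.28% in arterial-leaning nuclei and 0.423% and 0.271% in venous-leaning ones, and its part in these differences was not tested.

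The amount of Vwf did not follow the arterial score. Median depth was 3754 UMIs in control and 3937 in cKO-labelled vascular nuclei with 0 Vwf UMIs. It was 9280.0 and 8380.0 in those with 10 or more, and the part of depth was not tested. Vascular nuclei with 3 to 9 Vwf UMIs were arterial-leaning in 64 of 97 control and 23 of 44 cKO-labelled cases, and Prdm16 stood at 587 and 465 CPM there. Among nuclei with 10 or more Vwf UMIs 9 of 37 and 4 of 16 were arterial-leaning, and Prdm16 stood at 148 and 121 CPM. At the other end, vascular nuclei with 0 Vwf UMIs had 88.1 and 102 CPM of Prdm16. Those with 1 UMI, just outside the limit, had 471 and 399 CPM, close to the 459 and 387 of nuclei with 2 UMIs. The contrast of Prdm16 therefore depends on the limit. Its log2 ratio over the other vascular nuclei was 1.59 (1.36 to 1.83) in the control and 1.23 (0.93 to 1.53) under the cKO label at 2 UMIs, and 2.35 and 1.82 when 1 UMI was enough.

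**Figure D4:**
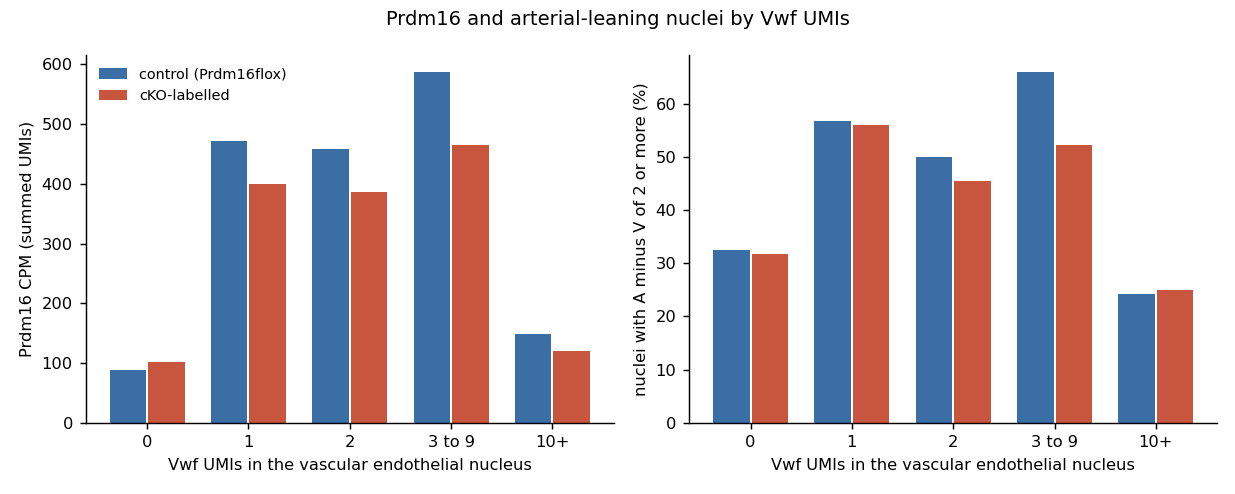
Bars show, for vascular endothelial nuclei grouped by their Vwf UMIs, the Prdm16 level in CPM (left) and the percent of nuclei with an arterial minus venous score of 2 or more (right), in the control and the cKO-labelled library. Both are higher from 1 to 9 Vwf UMIs than at 0 or at 10 or more, with Prdm16 at 587 CPM in the control at 3 to 9 UMIs and at 148 CPM at 10 or more.

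The last comparison set the Vwf-high nuclei of the cKO-labelled library beside those of the control. Each side is 1 library, so genotype, animal and library cannot be told apart. Of 5934 genes with at least 50 UMIs in both libraries together, 441 (7.43%) were at least 1.5 times higher and 378 (6.37%) at least 1.5 times lower in the cKO-labelled library. With TMM scaling the split was 296 higher and 541 lower, so the balance of the directions depends on the scaling. Of these genes 228 on the higher side and 105 on the lower side stood below the level in all other kept nuclei of the library where they were higher. Of the rest, 213 and 273, the genes named come from the 12 on each side whose interval's nearer bound lay farthest from 0.

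Lower in the cKO-labelled library were Shisa9, Gm13986, Npas2, Ctnna2, Dkk2, Cysltr1, Mdga2, Cyp26b1, Cep290, Trpm6, Casz1 and mt-Nd4l. Dkk2, a Wnt antagonist, had 164 UMIs in 23 control nuclei and 19 UMIs in 7 cKO-labelled nuclei, a log2 ratio of -1.91 (-2.68 to -1.22), which was -0.71 after thinning to 1500 UMIs. Nearly all of its UMIs, 163 and 18, were in arterial-leaning nuclei. Cyp26b1, which breaks down retinoic acid, had 85 UMIs in 28 control and 10 in 6 cKO-labelled nuclei, log2 -1.88. In venous-leaning nuclei it had 51 and 4 UMIs, and in arterial-leaning nuclei alone, with 6 and 5 UMIs, its ratio pointed the other way at 1.09. Cysltr1, a leukotriene receptor, had 81 and 8 UMIs. Ctnna2 rested on 1 control nucleus with 67.5% of its UMIs, and Shisa9 on 7 control nuclei.

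The core clock genes Npas2 and Arntl were lower together. Npas2 had 73 UMIs in 29 control nuclei and 5 in 2 cKO-labelled nuclei, log2 -2.67 (-4.33 to -1.38). Arntl had 73 and 7 UMIs, log2 -2.18 (-3.54 to -1.06). Of 15 measured clock genes these 2 were lower and Dbp, Per3 and Nr1d1 higher past 1.5 times, with a list median of 0.25, beside a median near 0 over all genes (-0.00). With the adipocyte profile subtracted, that list median was -0.05. Per3 stood at 108 CPM in the control and 167 under the cKO label. The same directions stood in all other kept nuclei, where Npas2 was at 32.7 and 10.8 CPM, Arntl at 54.5 and 29.0 and Per3 at 173 and 252. The hour of tissue collection is not given in the sources used here. The mitochondrial gene mt-Nd4l was also lower in all other nuclei, at 71.2 against 34.0 CPM.

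Higher in the cKO-labelled library were Kcnt2, Pnlip, Cacna1c, Gclm, Ccdc125, Ntng1, Gm48099, Gucy1a2, Rnf144b, Reps1 and Ltbp1. Kcnt2, a potassium channel gene, had 31 UMIs in 22 control nuclei and 98 in 15 cKO-labelled nuclei, and 44.9% of the latter came from 1 nucleus. Its log2 ratio was 2.86 (2.27 to 3.50), 2.29 without the top nucleus of each library, and 1.34 without the nuclei that held markers of pericytes, T cells or B cells. Cacna1c, the L-type calcium channel of smooth muscle, had 18 and 41 UMIs, 68.3% of the latter from 1 nucleus. Markers of pericytes and smooth muscle moved with it: summed over 8 genes, all detected in both libraries, they stood at 62.0 CPM in control and 160.3 CPM in cKO-labelled Vwf-high nuclei, and 4 of 71 cKO-labelled nuclei but 1 of 156 control nuclei had 4 or more such UMIs. When all nuclei with 4 or more UMIs of pericyte and smooth muscle, T cell or B cell markers were left out (11 control and 10 cKO-labelled), the log2 ratio of Cacna1c was -0.56, that is, in the other direction. That of Gucy1a2, a subunit of the nitric oxide receptor, went from 1.47 to 0.24, which is under 1.5 times.

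Gclm, a subunit of the enzyme that starts glutathione synthesis, had 22 UMIs in 18 control nuclei and 31 in 18 cKO-labelled nuclei, with no nucleus above 9.68% of them, and a log2 ratio of 1.70 (0.86 to 2.56). Reps1, an endocytosis adaptor, stood at 89.9 and 179.6 CPM. The digestive lipase gene Pnlip stood at 12.5 and 73.8 CPM, and at 13.9 and 72.6 CPM in all other kept nuclei, so its difference was as large outside the Vwf-high nuclei. The pancreatic acinar markers Cela1 and Cpb1 also stood higher, at 229 and 146 CPM against 137 and 58.5 in the control, and in all other kept nuclei they stood at 256 and 201 CPM against 59.5 and 41.6. Acaca, a gene of fatty acid synthesis and an adipocyte marker here, stood at 1848 and 4039 CPM, and at 7104 and 10199.5 in adipocyte nuclei. Summed over 4 acinar genes the level in Vwf-high nuclei was 211 CPM and 414 CPM. The part of RNA from other cells in these differences was not tested.

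**Figure D5:**
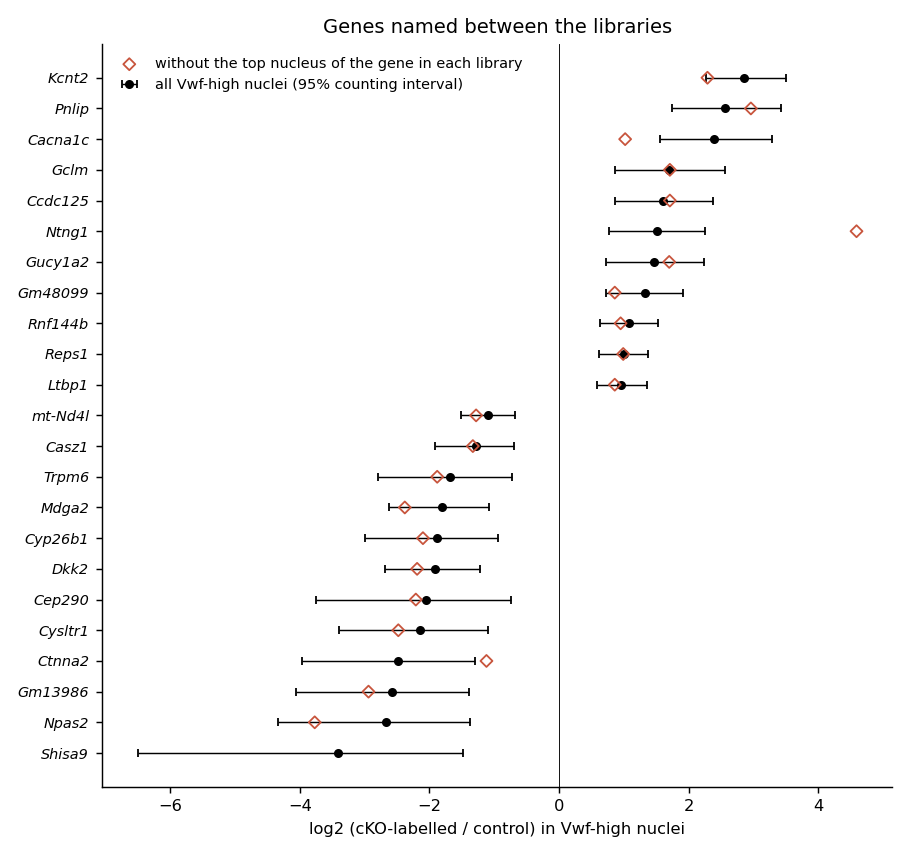
Points are log2 ratios of the cKO-labelled over the control library in Vwf-high nuclei for 23 named genes, with bars for 95% counting intervals; red diamonds leave out, for each gene, the nucleus with the most UMIs of it in each library. Kcnt2 moves from 2.86 to 2.29 and Ntng1, which rests on 3 nuclei a library, from 1.51 to 4.59, while Shisa9 has no diamond because no cKO-labelled UMI was left.

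Arterial list genes stood lower in the cKO-labelled library in 6 of 8 cases. Of 8 measured arterial genes 3 were at least 1.5 times lower (Gja5, Fbln5 and Efnb2) and none higher, with a list median of -0.48, while Bmx stood at 362 CPM in the control and 491 under the cKO label. Summed over all 12 listed arterial genes, the level was 1314 CPM in the control and 1191 under the cKO label. In arterial-leaning nuclei that sum was 2011 and 1935 CPM. Arterial-leaning nuclei made up 53.8% and 45.1% of the Vwf-high nuclei, and the part of this share in the list was not tested. Gja5, which encodes connexin 40, had 218 and 52 UMIs, at 152 and 83.4 CPM, log2 -0.86 (-1.33 to -0.42). Within arterial-leaning nuclei, where the score selects on this gene, the log2 ratio of Gja5 was -0.70. Fbln5, an elastic fibre protein that the score does not use, stood at 185 and 109 CPM, and its log2 ratio was -0.71 both in arterial-leaning nuclei and in the other vascular nuclei. Of 7 measured venous genes 1 (Ephb4) was higher and none lower, with a median of 0.29. The marker genes of the label, Vwf, Ptprb, Tek and Selp, differed by log2 ratios of -0.07, -0.02, -0.49 and 0.24, all under 1.5 times. Of 20 measured endothelial transcription factor genes none was higher past 1.5 times and 1, Ets1, was lower. Of 10 measured Notch genes none passed in either direction.

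The remaining lists held few such genes. Of 10 measured genes of Weibel-Palade bodies and haemostasis 1 was higher, F8, at 41.8 CPM in the control library and 88.2 CPM in the cKO-labelled one. Of 7 measured VEGF genes 2 were higher (Kdr and Vegfa) and none lower, with the receptor Kdr at 31.3 and 56.1 CPM. Of 14 measured interferon and antigen presentation genes 2 were lower (Iigp1 and Rnf213), where the interferon-induced GTPase Iigp1 stood at 166 and 77.0 CPM. Of 18 measured matrix genes 3 were lower (Col18a1, Fbln5 and Lamb1) and none higher. These counts stand beside the shares of 7.43% and 6.37% over all genes measured.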

How the data were processed

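Raw UMI counts per gene and cell barcode were used as the authors deposited them, 2 filtered matrices made with Cell Ranger 6.1.2 on mm10, per the submitters' processing notes and the file headers. The libraries held 108987031 and 70895490 UMIs, 1435561 and 623653 of them in Vwf-high nuclei, and the counts are in molecules, not reads. Whether introns were counted is not given in the sources used here. The series text names other fat depots and total RNA, and the sample labels, which name mesenteric fat and nuclear RNA, were followed.

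Counts were summed over the nuclei of a class in each library and divided by the class total (CPM). Levels have exact Poisson intervals, shares Clopper-Pearson intervals and log2 ratios exact conditional binomial intervals (Python 3.11.15, scipy 1.17.1). Genes were named as the 15 with the largest ratio each way against the other vascular nuclei, the 12 each way between the libraries, the 3 outermost members of each list, and Vwf, Ptprb, Selp, Tek, Prdm16 and Mecom. Other list members were named after their values were seen. Members and lists were chosen with earlier results of these data known. Scripts were tested on simulated data. Doublets were left in the main values: the automatic threshold of Scrublet (scanpy 1.11.5) marked 1 nucleus among 19480 and so did not work, and an alternative removed the 1079 and 495 nuclei with the highest scores, 15 and 5 of them Vwf-high. Other alternatives used TMM factors (edgeR 4.0.16), other limits, thinning and subtraction of an adipocyte profile. Gene positions are from GENCODE M21 (GRCm38). A few genes that these rules pick are not reported here.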

Additional observations from a re-analysis of the deposited data

How the results depend on the processing

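No paired analysis was possible because each genotype had 1 library, and for the same reason no replicate could be left out. Of 185 alternative values for the shares, gene counts, list medians, score shares and Prdm16 ratios, 159 stayed within the counting interval (shares and Prdm16) or within 1.5 times of the main value (counts and list medians). List medians near 0 turned sign when the adipocyte profile was subtracted: the arterial list over the other vascular nuclei from 0.25 to -0.04, and the clock list between the libraries from 0.25 to -0.05.

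With 1 Vwf UMI as the limit the shares of kept nuclei were 1.66% in the control and 1.22% under the cKO label, and the log2 ratio of Prdm16 over the other vascular nuclei was 2.35 and 1.82. With 3 UMIs as the limit that ratio was 1.26 in the control. Thinning to 1500 UMIs, which leaves fewer UMIs to count, gave shares of 0.428% and 0.447%. It gave 68 genes higher and 83 lower against the other vascular nuclei, and 102 higher and 131 lower between the libraries. Arterial-leaning nuclei were then 32.7% and 28.2%, and venous-leaning nuclei 7.69% and 7.04%. The Prdm16 ratio in the control was 1.21 after thinning, and the cause of that shift was not tested. With only 5 UMIs required, 298 genes were higher and 405 lower against the other vascular nuclei, and 2463 higher and 2254 lower between the libraries, since more genes are tested. Subtracting the adipocyte profile gave 284 lower genes, a capillary list median of -2.81 (-1.59 without, the smaller ratio of the libraries for each gene) and a Prdm16 ratio of 1.29 in the control. Removing the highest doublet scores gave a Prdm16 ratio of 1.54 in the cKO-labelled library, and averaging CPM over nuclei gave a Prdm16 ratio between the libraries of -0.12; the cause was not tested. A score difference of 1 UMI made 32.7% of control nuclei venous-leaning.

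Of the 24 genes chosen between the libraries, 3 changed direction. Ctnna2 reached 1.14 after thinning. The others did so under alternatives added after seeing the data, Cacna1c at -0.56 without nuclei holding pericyte, T or B cell markers and Cyp26b1 at 1.09 in arterial-leaning nuclei alone. Without nuclei holding those markers Gucy1a2 fell under 1.5 times, at 0.24, and after thinning Gm48099, Rnf144b and Cacna1c did, at 0.29, 0.51 and 0.55. Ntng1 did at 0.57 with an endothelial limit of 16 per 10000 UMIs and at 0.54 without the highest doublet scores. The 15 genes with the largest ratio each way against the other vascular nuclei stayed past 2 times under the alternatives run that gave them a value, and of the other genes named there only Prdm16 was recomputed.

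Depth limits the smaller classes. The 17 undecided cKO-labelled nuclei hold 80145 UMIs in all, where a count of 0 allows 37.4 CPM.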
